A study of Homo sapiens with 6 samples.

Results

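The genes described here encode respiratory complexes II to V and cytochrome c, the part of oxidative phosphorylation that follows complex I, together with the assembly factors named in the same gene series. They were taken by symbol as all protein-coding genes SDHA to SDHD, those beginning with UQCR or UQCC, CYC1, CYCS, COX followed by a number, those beginning with ATP5F1, ATP5M or ATP5P, ATP5IF1, and 6 genes of the mitochondrial genome. This gave 73 of 60664 genes in the tables, of which 67 are nuclear and 6 mitochondrially encoded. The nuclear members comprise 4 genes of complex II, 16 of complex III, 26 of complex IV, 20 of complex V and the single gene of cytochrome c.

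Counts came from polyA+ RNA-seq of D283 Med, an established human line of Group 3 medulloblastoma with an amplified MYC gene. Cells of both groups received LNA GapmeRs, antisense oligonucleotides that recruit RNase H to a transcript. The GapmeR was scrambled (SCR) for the 3 control libraries and targeted lncMB3, a long non-coding RNA, for the 3 knockdown libraries (KD). The comparison asks which transcripts differ between these groups. Only 1 cell line was used. Whether libraries of a group are separate cultures is not stated in the labels, and p-values then reflect only the variation among these libraries, possibly technical. The level of lncMB3 itself was not analysed here, because no source used here gives its gene identifier, and directions rest on the group labels. Total counts ran from 7765826 (knockdown library 1) to 20035834 (control library 2). Of 7 Group 3 marker genes, 7 reached 1 CPM (counts scaled to library size) in at least 1 library, with a summed level of 2854 to 3093 CPM for controls and 2703 to 2785 CPM for knockdown libraries. Of 11 markers of glia, immune, endothelial, mesenchymal and muscle cells, 3 reached 1 CPM in at least 1 library (CD68, COL1A1 and PDGFRB) and MBP was at 0 in each library, with a summed level of 35.8 to 40.6 CPM among the controls and 29.9 to 34.1 CPM in knockdown libraries. Of the Group 3 markers, OTX2 (log2 change -0.28, adjusted p = 0.0202), NRL (-0.69, 0.0226), CRX (-0.44, 0.0132) and IMPG2 (-0.59, 0.000414) fell and GABRA5 (0.41, 0.00384) rose, while MYC (0.03) and NPR3 (0.10) were not called; OTX2, NRL and CRX lost the call when certain single libraries were left out (adjusted p up to 0.122). Of the markers of other cells COL1A1 fell (-0.36, adjusted p = 0.0315) and ACTA1, below 1 CPM in each library, rose (1.57, 0.0304), calls lost in 5 of 14 and 4 of 12 alternatives. The part of these markers in the results was not tested, and in bulk RNA fewer cells of a type and less RNA per cell cannot be told apart.

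Complex II (succinate dehydrogenase) passes electrons from succinate to ubiquinone. Complex III takes them from ubiquinone to cytochrome c, and complex IV (cytochrome c oxidase) passes them from cytochrome c to oxygen. Complexes III and IV pump protons, and complex V (ATP synthase) uses the proton gradient to make ATP. Complex II is encoded in the nucleus alone, whereas complexes III, IV and V combine nuclear subunits, which are imported, with subunits made inside the mitochondrion. Assembly factors insert heme, copper and iron-sulfur clusters or hold subunits together during assembly, and are not part of the finished enzyme.

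Of the 73 members, 68 passed the filter on low counts and were tested. The other 5 were near or at 0: COX6A2, COX7A1, COX7B2 and COX8C had 0 counts in all 6 libraries, and ATP5MGL had at most 1 count. A count of 0 allows up to 3 counts, which is 0.15 to 0.386 CPM depending on the library. Many of the tested members lay slightly higher in the knockdown. By edgeR's quasi-likelihood test (Benjamini-Hochberg adjustment over all 14673 genes tested, adjusted p under 0.05), 19 of 68 members changed (27.9%), 16 higher and 3 lower. Among all genes tested 31.7% passed the same test, 15.9% higher and 15.9% lower, so the share of members called is near the background and is not a result about the members. At an unadjusted p under 0.05 there were 27 members. The groups did not overlap for 19 members that were higher after knockdown and 4 that were lower, beside 22.9% and 23.1% of all genes tested. The median log2 change (knockdown over control) was 0.18 over the 62 nuclear members tested and 0.06 over the 6 mitochondrial ones, beside 0.00 over all genes tested. It lay above 0 in 53 of 62 nuclear members, and in 50.1% of all genes tested. These small shifts leaned on single libraries. Without knockdown library 2 the nuclear median was 0.07 and 8 members were called (5 higher, 3 lower). Without control 2 or control 3 the number of members called was 3 or 6. Calls over all genes also fell, from 2328 higher and 2329 lower. They were 2165 and 2141 without knockdown library 2, 1264 and 1440 without control 2, and 1420 and 1471 without control 3. With upper-quartile scaling, 7 members were called higher and 4 lower, beside 1773 and 2803 of all genes, whose median moved to -0.06.

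**Figure D1:**
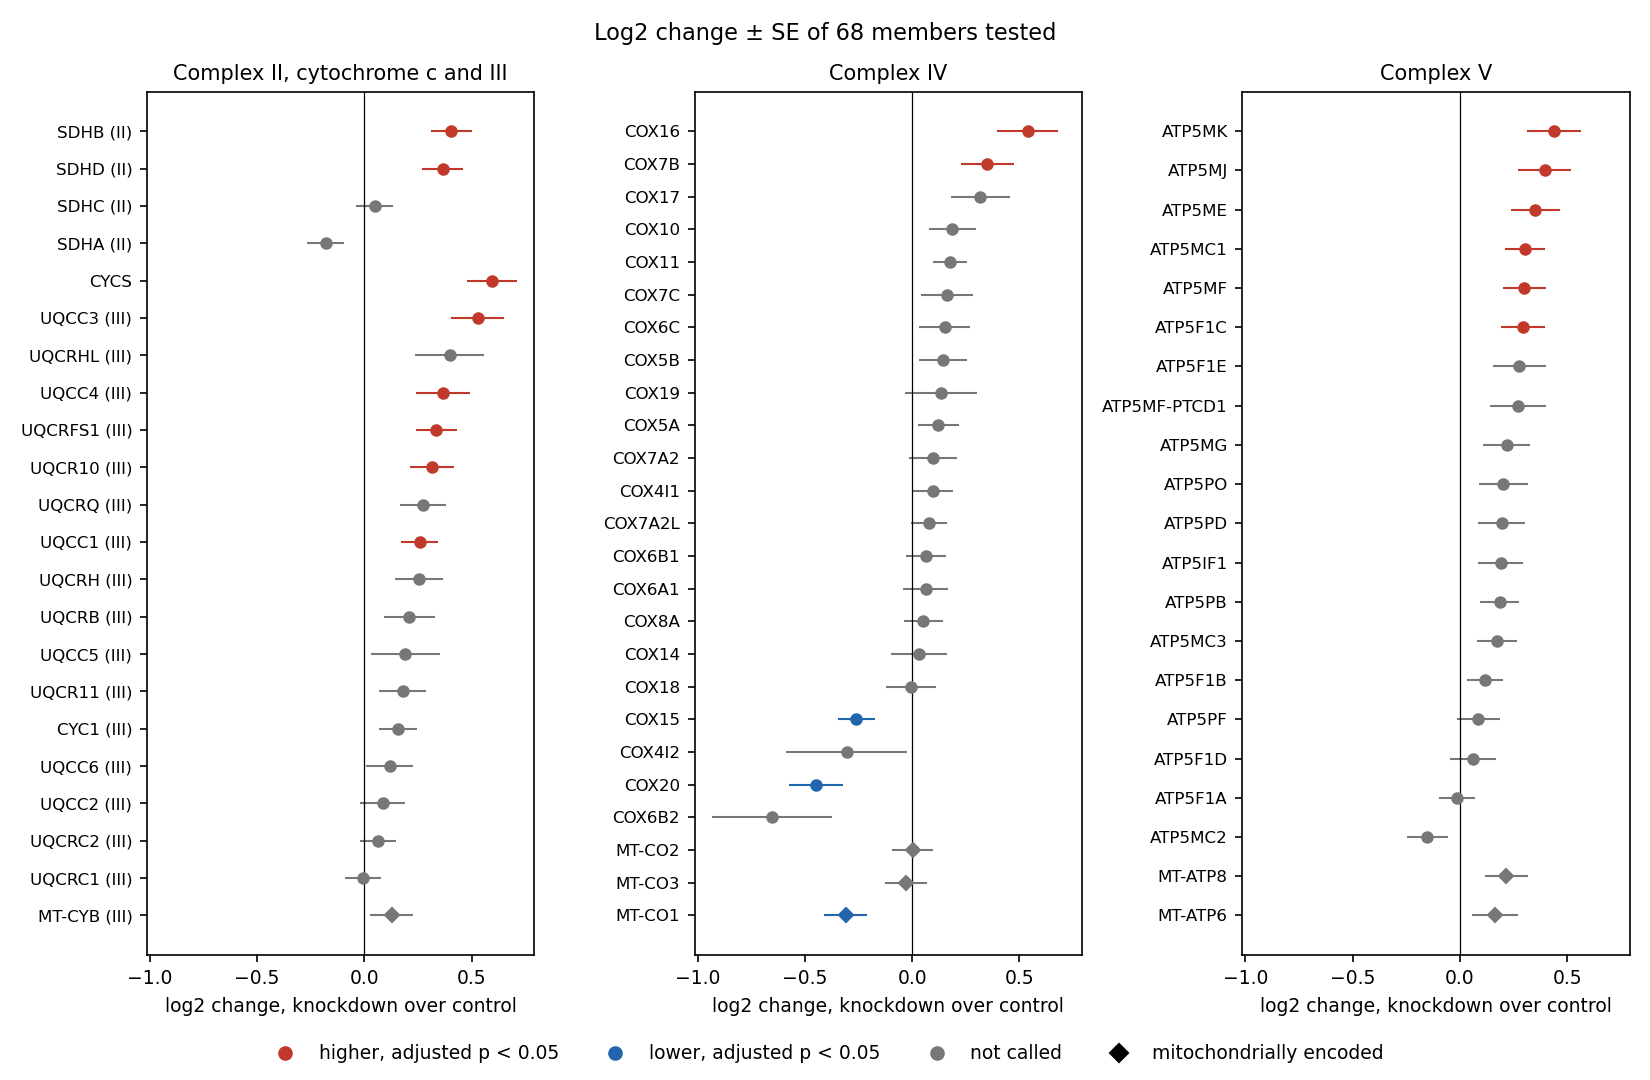
Log2 change (knockdown over control, horizontal axis) with its standard error for the 68 members tested, by complex; red and blue mark an adjusted p under 0.05 and diamonds mark mitochondrially encoded genes. In complex II, SDHB and SDHD lie right of 0 and SDHA lies left of it, and in complex IV most subunits lie within 0.2 of 0.

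The changed members of complex II were its iron-sulfur subunit and only 1 of its membrane anchors. SDHB (chromosome 1, 17018722 to 17054170), the iron-sulfur subunit, was at 89.04, 74.9 and 72.1 CPM in controls 1 to 3, against 103, 112 and 97.3 CPM in the knockdown libraries in the same order. The groups did not overlap, and SDHB rose 1.32-fold (log2 change 0.41 ± 0.10, SE, adjusted p = 0.00597). SDHD (chromosome 11, 112086773 to 112120013), a membrane anchor that carries heme and the ubiquinone site with SDHC, was at 60.3, 54.2 and 49.6 CPM among the controls and 63.7, 74.8 and 71.9 CPM after knockdown. Its groups did not overlap either, and it rose 1.29-fold (adjusted p = 0.0104). SDHD did not pass without control 2 or control 3 (adjusted p up to 0.0546), whereas SDHB passed in all 14 alternative analyses, with log2 changes of 0.35 to 0.51.

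The other subunits of complex II were not called. SDHA, the flavoprotein that oxidizes succinate, was at 126, 117 and 126 CPM among the controls and 118, 109 and 99.7 CPM after knockdown, a log2 change of -0.18 (95% interval -0.36 to 0.00, adjusted p = 0.125). With upper-quartile scaling SDHA was called lower (-0.24, adjusted p = 0.0465). SDHC, the other anchor, was at 170, 152 and 148 CPM among the controls and 159, 171 and 156 CPM after knockdown, a log2 change of 0.05 (-0.13 to 0.23, adjusted p = 0.701). The ratio of SDHB to SDHA, which does not depend on scaling between libraries, was 0.709, 0.637 and 0.574 among the controls and 0.875, 1.03 and 0.976 after knockdown. The ratio of SDHD to SDHA was 0.480, 0.462 and 0.395 among the controls and 0.540, 0.689 and 0.721 after knockdown. SDHB over SDHC went from 0.502 ± 0.019 to 0.644 ± 0.016 (SD, n = 3 each). None of these ratios overlapped between the groups. The ratios given here come from 10 that were chosen after their values were seen, not all of which are printed. They carry no test, and an exact permutation of 3 against 3 libraries cannot give a p below 0.1.

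**Figure D2:**
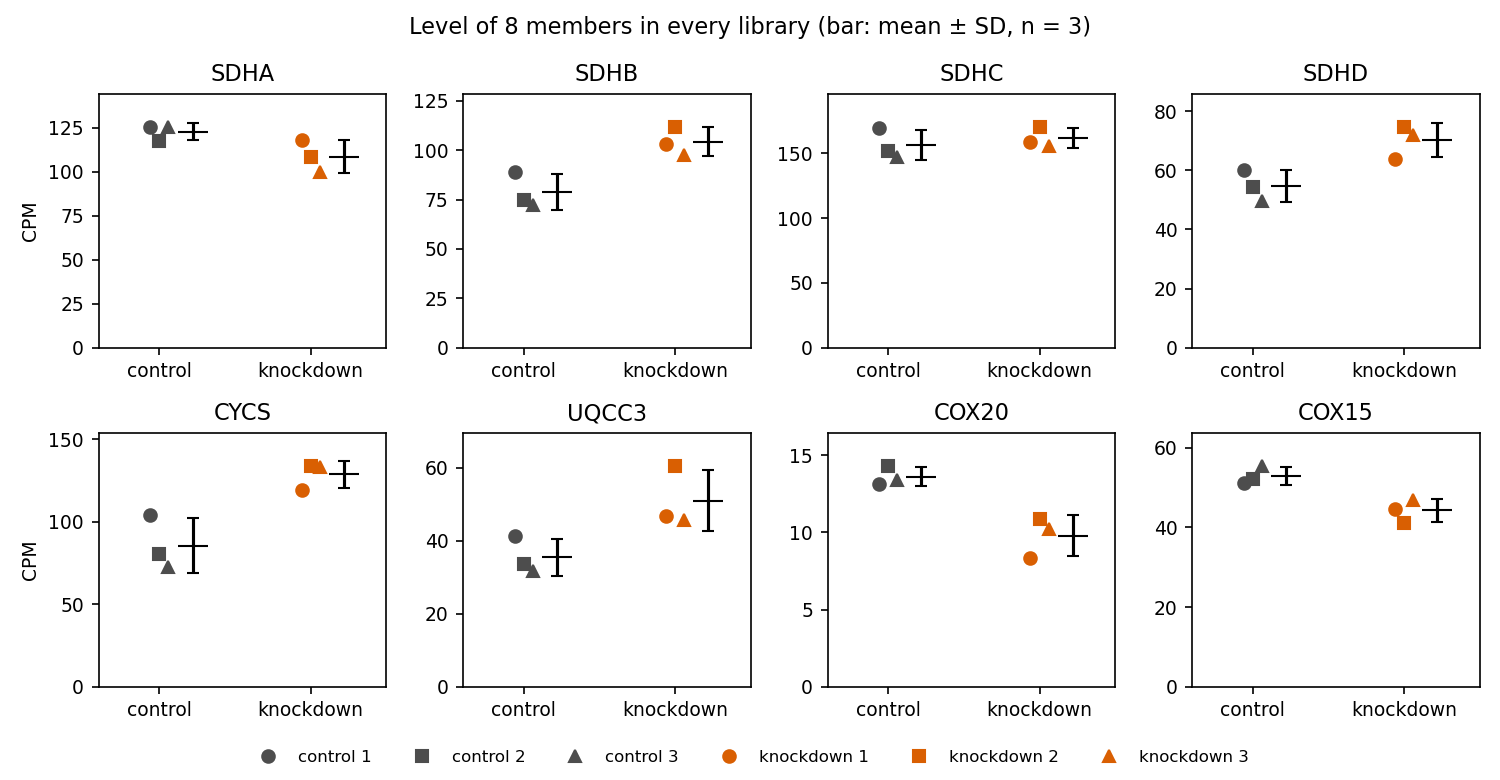
CPM of 8 members in each of the 6 libraries, with the mean and SD of each group (n = 3); axes start at 0. SDHB, SDHD, CYCS and UQCC3 are higher in all 3 knockdown libraries than in any control, COX20 and COX15 are lower in all 3, and SDHA and SDHC overlap between the groups.

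Cytochrome c carries electrons between complexes III and IV and, once released from mitochondria, takes part in apoptosome formation. CYCS (chromosome 7, 25120091 to 25125361) was at 104, 80.3 and 72.2 CPM among the controls and at 119, 134 and 133 CPM after knockdown. Every knockdown library was above every control, although control 1 was closer to them than the other controls. CYCS rose 1.51-fold (log2 change 0.59 ± 0.12, SE, adjusted p = 0.00187), the member with the smallest adjusted p, and passed in all 14 alternatives with log2 changes of 0.49 to 0.76. CYC1, the cytochrome c1 of complex III to which it docks, had a log2 change of 0.16 (-0.03 to 0.34, adjusted p = 0.187). The ratio of CYCS to CYC1 was 0.649, 0.516 and 0.447 among the controls and 0.714, 0.677 and 0.798 after knockdown.

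In complex III, 5 of 16 nuclear members rose and none fell, with a median log2 change of 0.23. The share called was 31.25%, beside 31.7% of all genes tested (15.9% higher and 15.9% lower). The large core subunits lay near 0. UQCRC1 had a log2 change of -0.01 (-0.19 to 0.17) and UQCRC2 one of 0.06 (-0.12 to 0.24). Of the catalytic subunits, UQCRFS1 (chromosome 19, 29205321 to 29213541), the Rieske iron-sulfur protein, was at 111, 99.6 and 88.2 CPM among the controls and at 118, 136 and 122 CPM after knockdown. It rose 1.26-fold (log2 change 0.34, adjusted p = 0.0165), with no overlap between groups. UQCR10 (chromosome 22, 29767369 to 29770413), a small subunit, was at 95.9, 96.5 and 85.1 CPM among the controls and 111, 132 and 102 CPM after knockdown (log2 change 0.31, adjusted p = 0.0288). These groups did not overlap, and knockdown library 2 was the highest. The other small subunits were not called, with log2 changes from 0.18 (UQCR11, adjusted p = 0.224) and 0.21 (UQCRB, 0.194) to 0.25 (UQCRH, 0.0925), 0.27 (UQCRQ, 0.0652) and 0.40 (UQCRHL, 0.0757).

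Assembly factors of complex III made up the rest. UQCC3 (chromosome 11, 62670273 to 62673687), which binds newly made cytochrome b, was at 41.3, 33.7 and 31.6 CPM among the controls and 46.7, 60.6 and 45.7 CPM after knockdown. It rose 1.44-fold (log2 change 0.53, adjusted p = 0.00538) without overlap, and passed in all 14 alternatives (0.38 to 0.65). UQCC1 (chromosome 20, 35302566 to 35412141), which stabilises new cytochrome b together with UQCC2, was at 50.3, 44.1 and 46.0 CPM among the controls and 53.6, 57.2 and 56.7 CPM after knockdown (log2 change 0.26, adjusted p = 0.0337). UQCC4 (chromosome 16, 1419744 to 1420800) was at 18.4, 14.1 and 14.6 CPM among the controls and 17.4, 21.6 and 20.9 CPM after knockdown. It was called higher (log2 change 0.37, adjusted p = 0.0365), although knockdown library 1 lay below control 1. UQCC2 (0.08, adjusted p = 0.576), UQCC5 (0.19, 0.394) and UQCC6 (0.12, 0.441) were not called. Without knockdown library 2, 1 of 16 members of complex III was called and the median was 0.09, and 1 was called without control 2 or control 3. Over the 14 alternatives the adjusted p reached 0.0866 for UQCRFS1, 0.118 for UQCR10, 0.175 for UQCC1 and 0.173 for UQCC4.

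The nuclear subunits of complex IV shifted little. Of 13 tested, 1 rose and none fell (7.69% called, beside 31.7% of all genes tested). The median log2 change was 0.10, or -0.02 without knockdown library 2. COX7B (chromosome X, 77899438 to 77907373), a small nuclear subunit, was at 135, 124 and 103 CPM among the controls and 149, 182 and 129 CPM after knockdown. Its groups overlapped, and the log2 change was 0.35 (adjusted p = 0.0420). The call was lost with upper-quartile scaling and without control 2, control 3, knockdown library 1 or knockdown library 2 (adjusted p up to 0.192). COX4I1, which caps the catalytic core on the matrix side, had a log2 change of 0.10 (-0.11 to 0.30, adjusted p = 0.469). For COX5A the value was 0.12 (-0.09 to 0.33), for COX6C 0.15 (-0.10 to 0.41) and for COX7C 0.16 (-0.09 to 0.42). COX6A1 stood at 0.06 (-0.16 to 0.29). COX5B (0.14), COX6B1 (0.07), COX7A2 (0.10), COX7A2L (0.08), which helps complexes III and IV join, and COX8A (0.05) lay in the same range, and COX4I2, at a low level, had -0.31 (adjusted p = 0.436).

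The assembly factors of complex IV moved in both directions, with 1 of 9 higher and 2 lower (33.3% called, beside 31.7% of all genes tested). COX16 (chromosome 14, 70325081 to 70359731), which takes part in maturation of the MT-CO2 subunit, was at 41.4, 32.1 and 28.0 CPM among the controls and 44.6, 58.8 and 43.2 CPM after knockdown, and rose 1.45-fold (log2 change 0.54, adjusted p = 0.0104). The groups did not overlap, but the lowest knockdown library and the highest control differed little, and without control 2 or knockdown library 2 the adjusted p reached 0.0611. Of the 50-base sequences in its transcript, 34.4% also occur in the readthrough transcript SYNJ2BP-COX16, with which RSEM would share reads. COX20 (chromosome 1, 244835322 to 244845057), a chaperone of newly made MT-CO2, was at 13.1, 14.3 and 13.4 CPM among the controls and 8.32, 10.8 and 10.2 CPM after knockdown. It fell 1.36-fold (log2 change -0.45, adjusted p = 0.0137), with no overlap. Without control 2 or knockdown library 1 the adjusted p was up to 0.0680. COX15 (chromosome 10, 99711844 to 99732100), which makes heme A, was at 51.2, 52.2 and 55.5 CPM among the controls and 44.6, 41.2 and 46.9 CPM after knockdown. Its fall was 1.20-fold (log2 change -0.26, adjusted p = 0.0340), also without overlap. It was not called without control 2, control 3, knockdown library 1 or knockdown library 2 (adjusted p up to 0.123). Of the 50-base sequences of COX15, 24.7% also occur in an overlapping protein-coding gene on the same strand, at a mean of 0.438 CPM. RSEM would share reads with that gene too.

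COX10, which makes the heme O that COX15 converts, was not called, with a log2 change of 0.19 (adjusted p = 0.199). The copper factors COX11 (0.18, adjusted p = 0.103), COX17 (0.32, 0.0879) and COX19 (0.13, 0.576) were not called, nor were COX14 (0.03, 0.885) and COX18 (-0.01, 0.974). COX20 overlaps 4420 bases of HNRNPU on the other strand, a gene at 1196 ± 64.5 CPM with the scrambled GapmeR and 1475 ± 36.7 CPM after knockdown (SD, n = 3 each). COX15 overlaps the span of CUTC on the other strand, which went from 27.8 ± 5.19 to 36.6 ± 4.54 CPM. Both neighbours moved up (adjusted p = 0.0151 and 0.0274) while the members moved down. SDHD shares 26 bases at its start with TIMM8B, which went from 43.5 ± 3.10 to 61.3 ± 10.7 CPM (adjusted p = 0.00462). No source says whether counting used the strand, so reads in these overlaps cannot be told apart.

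In complex V, 6 of 19 tested nuclear members rose and none fell, with a median log2 change of 0.20. The share called was 31.6%, beside 31.7% of all genes tested (15.9% higher and 15.9% lower). Of the catalytic head only the gamma subunit was called. ATP5F1A and ATP5F1B, its alpha and beta subunits, had log2 changes of -0.02 (-0.19 to 0.16) and 0.12 (-0.06 to 0.29), and ATP5F1D and ATP5F1E ones of 0.06 (adjusted p = 0.688) and 0.28 (0.0989). ATP5F1C (chromosome 10, 7788129 to 7807815), the gamma subunit that forms the central stalk, was at 188, 183 and 170 CPM among the controls and 204, 259 and 199 CPM after knockdown. It rose 1.23-fold (log2 change 0.29, adjusted p = 0.0399), with no overlap and with knockdown library 2 far above the other knockdown libraries. Members of the peripheral stalk were not called, with log2 changes of 0.19 for ATP5PB (adjusted p = 0.136), 0.19 for ATP5PD (0.190), 0.09 for ATP5PF (0.542) and 0.20 for ATP5PO (0.194).

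The other 5 changed members of complex V belong to its membrane part. ATP5MK (chromosome 10, 103389041 to 103396492) was at 66.2, 56.2 and 56.6 CPM among the controls and 71.2, 100 and 69.8 CPM after knockdown (log2 change 0.44, adjusted p = 0.0169). ATP5MJ (chromosome 14, 103912288 to 103928269) was at 95.7, 78.9 and 74.1 CPM among the controls and 94.8, 132 and 98.6 CPM after knockdown (log2 change 0.39, adjusted p = 0.0267). Both encode small accessory proteins of the membrane part, both were highest in knockdown library 2, and for ATP5MJ the groups overlapped. ATP5ME (chromosome 4, 672436 to 674338), subunit e, which joins the enzyme into dimers, was at 94.3, 93.3 and 78.7 CPM among the controls and 108, 135 and 96.6 CPM after knockdown (log2 change 0.35, adjusted p = 0.0314). ATP5MF (chromosome 7, 99448475 to 99466331), subunit f, was at 76.4, 70.5 and 75.7 CPM among the controls and 88.97, 105 and 80.4 CPM after knockdown (log2 change 0.30, adjusted p = 0.0311). The groups did not overlap for ATP5ME, ATP5MF or ATP5MK. ATP5MG, subunit g, was not called (0.22, adjusted p = 0.138), nor was the readthrough gene ATP5MF-PTCD1 (0.27, adjusted p = 0.132), which shares 98.1% of its 50-base sequences with other genes. None of the 6 calls of complex V remained without control 2, without control 3 or without knockdown library 2, and the median of the 19 was 0.08 in the last case. Over the 14 alternatives the adjusted p reached 0.0781 for ATP5MK, 0.130 for ATP5MJ, 0.143 for ATP5ME, 0.138 for ATP5MF and 0.144 for ATP5F1C.

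ATP5MC1, ATP5MC2 and ATP5MC3 encode the same mature c subunit of the rotor ring with different import sequences. ATP5MC1 (chromosome 17, 48892765 to 48895871) was at 183, 169 and 167 CPM among the controls and 210, 238 and 192 CPM after knockdown, and rose 1.23-fold (log2 change 0.30, adjusted p = 0.0213). It was not called with upper-quartile scaling or without control 2, control 3, knockdown library 1 or knockdown library 2 (adjusted p up to 0.0968). ATP5MC2 was at 298, 313 and 310 CPM among the controls and 263, 318 and 248 CPM after knockdown, a log2 change of -0.15 (-0.36 to 0.05, adjusted p = 0.245). Without knockdown library 2 it was called lower (-0.26, adjusted p = 0.0213), as it was after a correction for transcript length (-0.21, adjusted p = 0.0269). ATP5MC3 had a log2 change of 0.17 (adjusted p = 0.175). The ratio of ATP5MC1 to ATP5MC2 was 0.614, 0.539 and 0.539 among the controls and 0.799, 0.748 and 0.775 after knockdown, and all 3 knockdown values lay above the controls. ATP5MC1 over ATP5MC3 went from 0.623 ± 0.007 to 0.683 ± 0.023. The summed level of the 3 genes was 758 ± 11.6 CPM among the controls and 803 ± 96.7 CPM after knockdown (SD, n = 3 each), a difference within the spread of the knockdown libraries. ATP5IF1, which inhibits the enzyme when it would hydrolyse ATP, was at 73.9, 79.4 and 66.3 CPM among the controls and 83.0, 94.99 and 72.7 CPM after knockdown (log2 change 0.19, -0.03 to 0.41, adjusted p = 0.182).

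The 6 mitochondrially encoded members are transcribed together as parts of long polycistronic RNAs that are then cut into separate messages. Here they took 3.64%, 3.57% and 3.22% of all counts in the control libraries and 3.20%, 2.88% and 3.17% after knockdown, whereas all 67 nuclear members took 0.843%, 0.820% and 0.779% among the controls and 0.833%, 0.954% and 0.815% after knockdown. MT-CO1 (chromosome M, 5904 to 7445), the catalytic subunit of complex IV with its heme and copper centre, was at 17510, 17752 and 15739 CPM among the controls and 14162, 12912 and 14083 CPM after knockdown. It was the only mitochondrial member to change, and its groups did not overlap. MT-CO1 fell 1.24-fold (log2 change -0.31 ± 0.10, SE, adjusted p = 0.0280), with -0.27 to -0.37 over the 14 alternatives. It did not pass without control 2, knockdown library 1 or knockdown library 3 (adjusted p up to 0.120), or with the replicate block (0.0568).

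No other mitochondrial member was called lower. MT-CO2 (chromosome M, 7586 to 8269) was at 5351, 5066 and 4553 CPM among the controls and 5150, 4958 and 4883 CPM after knockdown, a log2 change of 0.00 (-0.20 to 0.20), the sign of which turned with the scaling and filter. MT-CO3 (chromosome M, 9207 to 9990) was at 7201, 6494 and 5907 CPM among the controls and 6331, 6404 and 6456 CPM after knockdown (-0.03, -0.24 to 0.18). Both form the core of complex IV with MT-CO1, and both overlapped between groups. MT-CYB (chromosome M, 14747 to 15887), cytochrome b of complex III, was at 2075, 1920 and 1679 CPM among the controls and 2170, 1904 and 2122 CPM after knockdown (0.13, -0.09 to 0.34, adjusted p = 0.352). The ATP synthase gene MT-ATP6 (chromosome M, 8527 to 9207) was at 3843, 3351 and 2994 CPM among the controls and 4047, 3443 and 3912 CPM after knockdown (0.16, -0.07 to 0.39, adjusted p = 0.267). MT-ATP8 (chromosome M, 8366 to 8572) was at 408, 370 and 337 CPM among the controls and 472, 378 and 447 CPM after knockdown (0.22, 0.00 to 0.43, adjusted p = 0.114). These 3 genes overlapped between groups, and MT-ATP8 was called higher without control 1 (0.29, adjusted p = 0.0483) or without knockdown library 2 (0.31, adjusted p = 0.0224).

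Within the mitochondrial members, the share of MT-CO1 was 48.1%, 50.8% and 50.4% among the controls and 43.8%, 43.0% and 44.1% after knockdown. MT-CO1 over the other 5 genes was 0.927, 1.03 and 1.02 among the controls and 0.779, 0.756 and 0.790 after knockdown. The spread within a group was small against that difference. The ratio of MT-CO1 to MT-CO2, genes encoded on the same strand with no other protein-coding gene between them, went from 3.41 ± 0.12 to 2.75 ± 0.14 (SD, n = 3 each). These ratios show unequal change within a library, not which gene kept its level. Nuclear copies of mitochondrial DNA hold 49.5% of the 50-base sequences of MT-CO1 (mostly the pseudogene MTCO1P12), 46.7% of those of MT-ATP6, 30.6% of MT-CO3 and 28.98% of MT-CO2, so how RSEM shared reads adds to the uncertainty.

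**Figure D3:**
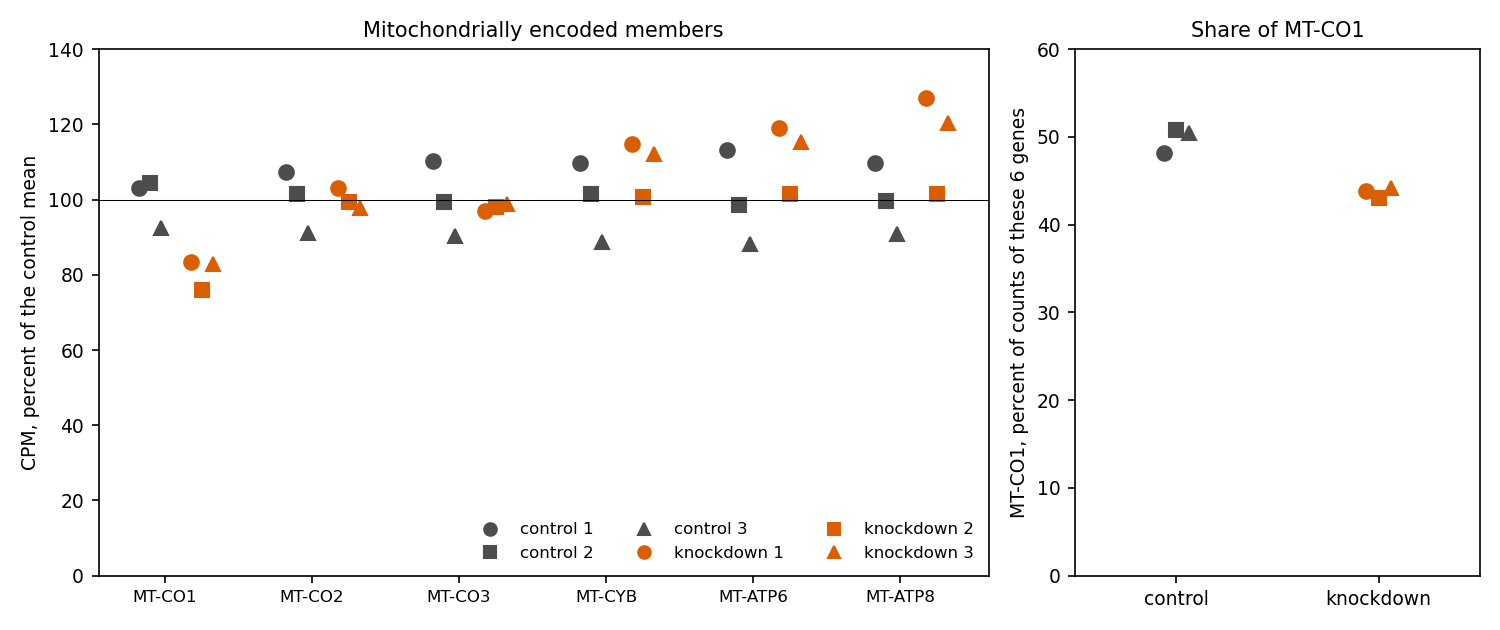
Left, CPM of the 6 mitochondrially encoded members in each library as a percentage of that gene's control mean. Right, MT-CO1 as a percentage of the counts of these 6 genes; MT-CO1 lies between 48.1% and 50.8% among the controls and between 43.0% and 44.1% in knockdown libraries.

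MT-ATP8 and MT-ATP6 are read from a single message in overlapping frames, so a read in the overlap belongs to both. The 46 bases they share (chrM:8527-8572, GRCh38, plus strand) make up 22.2% of the 207 bases of MT-ATP8 and are shown with the start codon of MT-ATP6 and the stop codon of MT-ATP8 in capitals.
MT-ATP8 and MT-ATP6 overlap: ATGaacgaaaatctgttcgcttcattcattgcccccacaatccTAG

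Members of a complex did not rise evenly in the 3 knockdown libraries. A score for each group of members, the mean log2 CPM relative to the mean of the 6 libraries, shows this. For the nuclear members the controls scored 0.00, -0.07 and -0.16 in order of their number, and the knockdown libraries 0.02, 0.24 and -0.03. Knockdown library 2 was the highest library for 51 of 62 nuclear members and control 3 the lowest for 39. Knockdown libraries 1 and 3 lay close to control 1. For complex V the score was -0.01, -0.10 and -0.19 among the controls and 0.03, 0.30 and -0.04 after knockdown, and for complex III -0.00, -0.11 and -0.22 against 0.01, 0.31 and 0.01. Complex IV was at 0.01, 0.01 and -0.09 among the controls and -0.01, 0.15 and -0.08 after knockdown. Complex II had 0.04, -0.12 and -0.16 among the controls and 0.07, 0.15 and 0.02 after knockdown, with control 1 above knockdown library 3. Without knockdown library 2 the median log2 change was 0.16 for complex II, 0.09 for complex III, -0.01 for complex IV and 0.08 for complex V. The mitochondrial members did not share the peak, at 0.11, 0.00 and -0.16 among the controls and 0.08, -0.07 and 0.04 after knockdown.

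**Figure D4:**
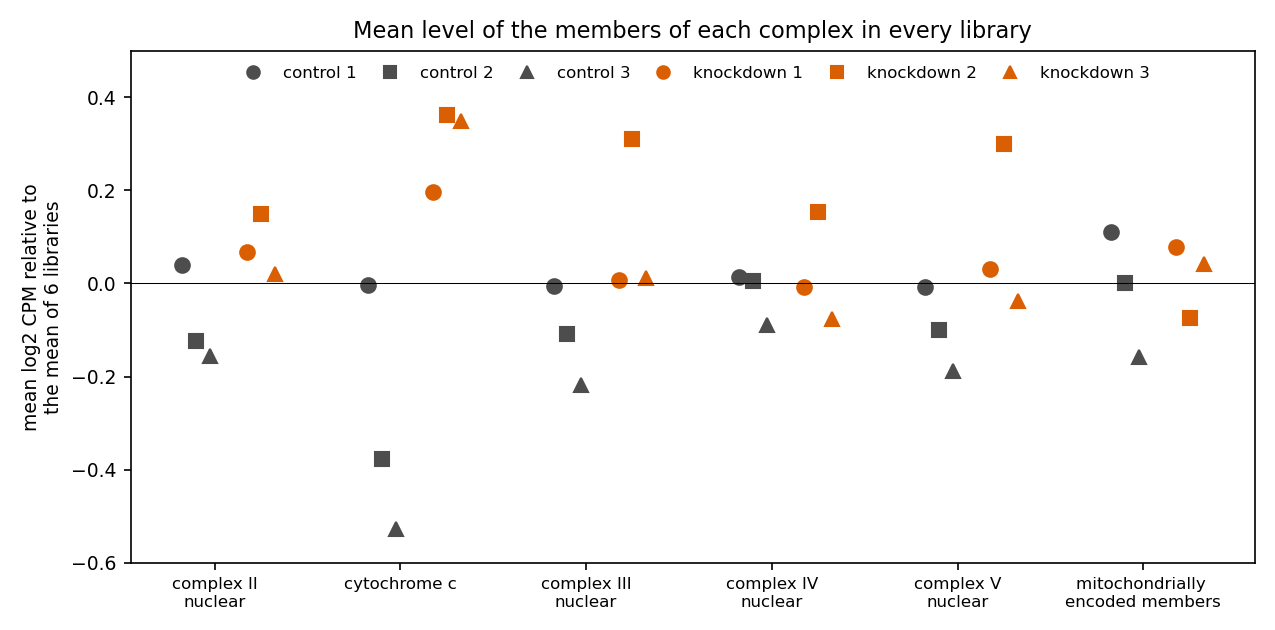
Mean log2 CPM of the tested members of each group (vertical axis, relative to the mean of the 6 libraries) for every library. Knockdown library 2 stands above the other 5 libraries in complexes II, III, IV and V, whereas for cytochrome c all 3 knockdown libraries lie above all 3 controls.

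Transcript length moved with the height of knockdown library 2. The nuclear members are short, with a median length of 803 bases against 2439 bases over all genes tested that have a length. The difference in log2 CPM between knockdown library 2 and the mean of knockdown libraries 1 and 3 had a median of 0.34 in the 38 nuclear members under 1000 bases and 0.14 in the 24 longer ones. Over all genes it was 0.23 in 1775 short genes and 0.00 in 12792 longer ones. Across genes the rank correlation of length with that difference was -0.46 over the 62 members and -0.46 over 14567 genes, a description of libraries and genes that are not independent. With the log2 change (knockdown over control) the rank correlation of length was -0.05 over the members and -0.11 over all genes. The median log2 change was 0.18 in the shorter members and 0.17 in the longer ones. Over all genes it was 0.07 and -0.01. With a correction for length, chosen after seeing the data, the nuclear median was 0.11 and 19 members were called, 15 higher and 4 lower, against 5274 of all genes. The part of length in the result was not tested further.

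Several subunits exist as pairs in which 1 copy is known from heart and skeletal muscle or from testis. Levels are compared per length here, as control CPM per kilobase of the gene's median protein-coding transcript. The muscle copies COX6A2 and COX7A1 were at 0, beside 341 ± 17.9 for COX6A1 and 213 ± 9.18 for COX7A2. COX7B2 and COX8C, known from testis, were also at 0, beside 199 ± 26.8 for COX7B and 250 ± 8.75 for COX8A. COX4I2, the lung form, was at 3.17 ± 0.55 beside 164 ± 3.58 for COX4I1. COX6B2 was at 1.08 ± 0.05 beside 201 ± 3.45 for COX6B1 (SD, n = 3 each). COX6B2 went from 1.70, 1.86 and 1.84 CPM in controls to 1.04, 0.991 and 1.36 CPM after knockdown, all below the controls (log2 change -0.65, -1.25 to -0.05, adjusted p = 0.0897), from 8 to 38 counts a library. In every pair the widely expressed copy was the higher one. UQCRHL was at 3.63 ± 0.53 and UQCRH at 324 ± 26.9, and 29.4% of the 50-base sequences of UQCRH also occur in UQCRHL, so the former may hold shared reads. The 3 rotor genes were each well expressed, with 321 ± 16.0 for ATP5MC1 and 330 ± 12.8 for ATP5MC3, which do not differ beyond their spread, and 378 ± 10.2 for ATP5MC2.

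Per kilobase of transcript, mitochondrial members were above every nuclear one. MT-CO1 stood at 11025 ± 713 CPM per kilobase in controls, MT-CO3 at 8334 ± 827, MT-CO2 at 7295 ± 591 and MT-ATP6 at 4987 ± 626. For MT-CO3 and MT-CO2 the ranges of 1 SD overlap. MT-ATP8 (1796 ± 170) and MT-CYB (1658 ± 175) were lower and did not differ beyond their spread. Of the nuclear members UQCRB led with 674 ± 70.1, followed by ATP5F1B with 530 ± 10.7 and ATP5F1A with 413 ± 19.4. In complex II the levels were 340 ± 25.7 for SDHC, 68.2 ± 7.87 for SDHB, 63.6 ± 6.22 for SDHD and 58.3 ± 2.24 for SDHA, of which SDHB, SDHD and SDHA do not differ beyond their spread. These levels depend on the transcript length used. For SDHC it was 460 bases and for SDHA 2107.5 bases, while their control levels were 157 ± 11.8 and 123 ± 4.71 CPM.

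Many nuclear respiratory genes are known to share promoter sites for NRF1, GABP and other ETS factors, YY1 and CREB. The promoters of 52 of the 67 nuclear members were matched in RefSeq (GRCh38.p14), as 250 bases before to 50 bases after the start. Both strands were searched for 5 motifs spelled as letters, and the E-box and CRE in ATP5ME overlap each other. The NRF1 core (GCGCA, any base, GCGC) was in 30.8% of the members' promoters, beside 11.9% of the 10250 promoters of tested protein-coding genes and 8.60% of all 15332. The ETS and GABP core CCGGAAG was in 34.6% of members and 19.4% of tested genes. For the YY1 core AAGATGGCG the shares were 9.62% and 4.01%, for the E-box CACGTG 13.5% and 10.1%, and for the cyclic AMP response element (CRE) TGACGTCA 5.77% and 3.31%. Among members with a promoter that were tested, the 15 with an NRF1 core had a median log2 change of 0.26 (7 called). The 34 without it had one of 0.14 (9 called), and of all genes tested 31.7% were called. With and without the motif, the medians were 0.19 and 0.16 for the ETS core and 0.09 and 0.19 for the YY1 core. They were 0.19 and 0.18 for the E-box, and 0.35 and 0.17 for the CRE, held by 3 of these members. These splits are descriptions with no test. Other genes with these motifs were not examined for change. Presence of these letters is not evidence of binding.

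Promoters are printed for 4 members that rose and that differ in these motifs, as the 250 bases before the RefSeq start, 5′ to 3′ on the gene's strand, with motif matches in capitals. That of CYCS (chr7:25125261-25125510, minus strand) holds none of the 5 motifs, that of SDHB (chr1:17054033-17054282, minus strand) an ETS core 128 bases before the start and the first bases of a CRE that runs past the start. SDHD (chr11:112086623-112086872, plus strand) has an NRF1 core 110 bases and an ETS core 77 bases before the start. ATP5ME (chr4:674277-674526, minus strand) has NRF1 cores 219 and 174 bases, an E-box 162 bases and a CRE 158 bases before it. Past the start, in bases that were searched but are not printed, SDHB also holds a YY1 core and ATP5ME an ETS core. No match says only that these letters are not in the window.
CYCS: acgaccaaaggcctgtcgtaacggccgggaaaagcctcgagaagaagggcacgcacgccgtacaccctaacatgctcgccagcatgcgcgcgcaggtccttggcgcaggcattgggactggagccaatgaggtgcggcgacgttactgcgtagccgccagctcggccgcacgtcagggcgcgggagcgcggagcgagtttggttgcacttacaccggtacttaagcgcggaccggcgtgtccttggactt
SDHB: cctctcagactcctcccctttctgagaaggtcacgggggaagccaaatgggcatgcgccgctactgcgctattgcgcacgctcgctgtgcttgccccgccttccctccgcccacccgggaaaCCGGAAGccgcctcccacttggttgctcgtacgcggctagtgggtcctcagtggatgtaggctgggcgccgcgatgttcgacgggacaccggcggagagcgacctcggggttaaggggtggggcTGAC
SDHD: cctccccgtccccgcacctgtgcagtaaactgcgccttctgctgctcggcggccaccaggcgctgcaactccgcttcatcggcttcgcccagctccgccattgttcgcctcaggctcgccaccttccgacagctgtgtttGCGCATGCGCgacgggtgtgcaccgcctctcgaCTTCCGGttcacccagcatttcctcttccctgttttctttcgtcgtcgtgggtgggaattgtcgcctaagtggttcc
ATP5ME: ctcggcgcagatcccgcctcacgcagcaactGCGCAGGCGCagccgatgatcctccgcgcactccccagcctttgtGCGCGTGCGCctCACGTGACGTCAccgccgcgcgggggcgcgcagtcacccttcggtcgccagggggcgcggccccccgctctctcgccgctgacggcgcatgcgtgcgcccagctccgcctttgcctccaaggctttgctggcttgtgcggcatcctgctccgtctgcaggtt

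The genes that act on these complexes from outside were described from 9 lists. The list of mitochondrial transcription and genome maintenance had the largest share called of the 9, with 16 of 21 higher and none lower and a median log2 change of 0.43 (0.42 without knockdown library 2). Over all genes tested 15.9% were higher. MTERF3, a regulator of mitochondrial transcription, went from 37.6 ± 10.3 to 71.0 ± 6.37 CPM (log2 change 0.93, adjusted p = 0.000519), and TFB2M, a factor that opens mitochondrial promoters, from 27.0 ± 5.45 to 42.8 ± 2.99 CPM (0.68, 0.00118). PNPT1, which degrades mitochondrial RNA, rose from 40.8 ± 7.93 to 68.4 ± 5.59 CPM (0.75, 0.000545). FASTKD5, needed to process mitochondrial messages without flanking transfer RNAs, rose from 38.4 ± 3.09 to 56.3 ± 0.67 CPM (0.55, 0.000534). These 4 genes were called in all 14 alternatives. Of the 6 mitochondrially encoded members, 4 had a log2 change above 0, none was called higher and MT-CO1 fell, while MT-ATP8 was called higher in 2 alternatives. Of the 7 mitochondrially encoded genes of complex I, 6 had a log2 change above 0 (median 0.20), and MT-ND3 rose. Of these 7, 6 were called higher without knockdown library 2, 3 without control 1 and 0 without control 2 or control 3.

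Assembly factors of complex IV outside the COX series had a list of their own. Of 22, 11 rose and 1 fell, with a median of 0.29 (0.19 without knockdown library 2). The share called was 54.5%, beside 31.7% of all genes tested (15.9% higher and 15.9% lower). COA7, a heme-binding assembly factor, went from 76.9 ± 13.0 to 133 ± 6.95 CPM (log2 change 0.79, adjusted p = 0.000209). TIMM21, which hands imported subunits to the assembly line, rose by 0.69 (adjusted p = 0.000913), COA6, a copper factor, by 0.63 (0.00119) and SCO1, a copper chaperone of MT-CO2, by 0.55 (0.00158). SURF1, also an assembly factor, fell by 0.32 on the log2 scale with an adjusted p of 0.0497, and its call was lost in 8 of 14 alternatives, among them RLE scaling, DESeq2, limma-voom and leaving out any library but knockdown library 2 (adjusted p up to 0.164). No test of the difference between this list and the subunits was made.

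The remaining lists moved less or in both directions. Among 4 assembly factors of complex II, SDHAF2, which attaches the flavin to SDHA, rose (0.42, adjusted p = 0.0127) and SDHAF4, which binds flavinated SDHA, fell (-0.54, adjusted p = 0.0254). Of 3 for complex III, BCS1L, which inserts the Rieske protein UQCRFS1, rose (0.36, adjusted p = 0.00684). Of 6 for complex V, TMEM70, which helps build the rotor ring, rose (0.79, adjusted p = 0.000286) and DMAC2L fell (-0.53, adjusted p = 0.00529). Ubiquinone synthesis had 2 of 11 higher and 2 lower (36.4% called, beside 31.7% of all genes tested), with a median of 0.04. COQ3, a methyltransferase of the ring (0.43, adjusted p = 0.0102), and PDSS1, which makes the isoprenoid tail (0.44, 0.0188), rose. COQ8B, an atypical kinase (-0.53, adjusted p = 0.00236), and COQ9, a lipid-binding protein (-0.25, 0.0449), fell. Leaving out 1 library ended the calls of BCS1L (control 2), SDHAF2 and COQ3 (control 3), SDHAF4 (control 2 or 3, knockdown library 1 or 3) and PDSS1 (control 2 or 3, knockdown library 2), with adjusted p up to 0.0902. COQ9 lost its call in 7 alternatives (adjusted p up to 0.143). The list of other subunits and electron carriers had 0 of 8 called by edgeR, while 2 of 8 had an unadjusted p under 0.05. With DESeq2 and with limma-voom 0 of the 8 were called.

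Nuclear regulators of respiration were split. The coactivators PPRC1 (log2 change 0.52, adjusted p = 0.000886) and PPARGC1B (0.42, 0.0127) rose, as did YY1 (0.24, 0.0402). PPRC1 was called in all 14 alternatives, PPARGC1B was not called without control 2, knockdown library 1 or knockdown library 3 (adjusted p up to 0.0734), and YY1 lost its call in 8, among them upper-quartile scaling, no filter, the replicate block and leaving out any library but knockdown library 2 (adjusted p up to 0.160). PPARGC1A, their best known relative, fell from 8.16 ± 0.82 to 5.28 ± 0.54 CPM (-0.60, adjusted p = 0.00749). NRF1 (0.11, adjusted p = 0.454) and GABPA (0.24, 0.0821) were not called. Complex I, the neighbouring entry point of electrons, had 10 of 44 genes higher and none lower with a median of 0.17, beside 0.17 for the 44 nuclear subunits of complexes II to V, of which 11 were higher and none lower. Over all genes tested 15.9% were higher. Leaving out control 2 reduced the 10 to 2 and the 11 to 1, and leaving out control 3 reduced both to 1. Over all genes the number higher also fell, from 2328 to 1264 without control 2 and to 1420 without control 3. With knockdown library 1 omitted, complex I had 6 higher and the nuclear subunits of complexes II to V had 6. With knockdown library 2 omitted they had 8 and 2, and with upper-quartile scaling 3 and 4. In the same order of settings, 1847, 2165 and 1773 of all genes were higher. The 44 genes of complex I include 7 mitochondrially encoded ones. Of its 8 calls without knockdown library 2, 6 were mitochondrially encoded and 2 were nuclear. With all libraries, NDUFAB1 (0.40, adjusted p = 0.00424), NDUFB1 (0.35, 0.0173) and NDUFS6 (0.33, 0.0234) were among the called genes of complex I, as was the mitochondrially encoded MT-ND3 (0.36, 0.0152). NDUFAB1 was called in all 14 alternatives, while NDUFB1 and MT-ND3 each lost the call in 2 and NDUFS6 in 5.

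**Figure D5:**
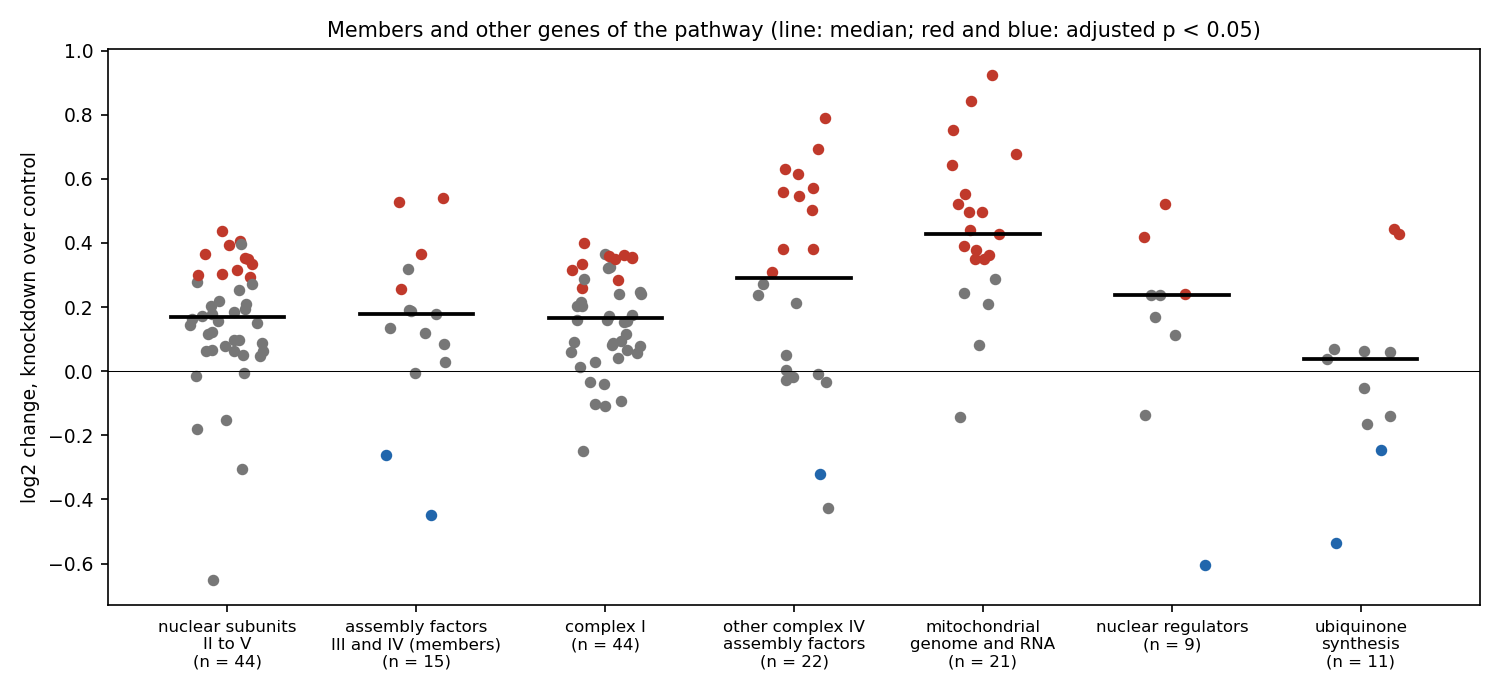
Log2 change (knockdown over control, vertical axis) of each tested gene in the nuclear subunits and assembly factors of complexes II to V and in 5 other lists; lines are medians and red and blue points have an adjusted p under 0.05. The median is 0.17 for the subunits, 0.29 for the other complex IV assembly factors and 0.43 for mitochondrial transcription and genome genes.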

How the data were processed

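Per the submitters' processing notes, the authors ran Trim Galore 0.6.4, STAR 2.7.9a and RSEM against GRCh38.p13. The deposited values are RSEM expected counts, rounded before deposit, in which reads of near-identical copies are shared. No source used here gives the annotation or the strand setting. Members and lists were chosen with earlier results of these data known. Of 60708 rows, 44 pseudoautosomal copies were added to their X copies. Coordinates, biotypes and lengths came from GENCODE release 29 (GRCh38).

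The 3 control and 3 knockdown libraries (7765826 to 20035834 counts) were tested with edgeR 4.0.16 in R 4.3.3 (filterByExpr, TMM, quasi-likelihood F test, no covariate, 2-sided), and p-values were adjusted by Benjamini-Hochberg over 14673 genes at 0.05. CPM uses TMM-scaled library sizes, SE is the log2 change over the square root of F, and scores used a prior count of 2. The biological coefficient of variation was 8.91%, and libraries within a group differed beyond counting error (chi-square 2.81 to 16.5 for each degree of freedom). Floors cover counting error only. The script was tested on simulated data. It recovered 79 of 100 genes changed 1.5-fold and 97 of 100 changed 2-fold, with 14 false among 190 calls. Changes below 1.5-fold, the size seen for most called members, were not simulated.

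Any member may be named; values per library are given for called and mitochondrially encoded members, CYCS and ATP5IF1, and for a few others beside them. Up to 4 called genes per list are named by smallest p. The list of markers of other cell types is incomplete: 1 gene of it is not reported here and is left out of its counts and sums. Ratios, neighbouring genes, SURF1, NRF1 and GABPA were chosen after values were seen. Alternatives were RLE and upper-quartile scaling, no filter, 1 CPM in 3 libraries, DESeq2 1.42.0, limma-voom (limma 3.58.1), a replicate block, each library left out, an adjusted p under 0.01 and, added after seeing the data, a transcript-length correction.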

Additional observations from a re-analysis of the deposited data

How the results depend on the processing

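The number of members changed was 19 in the main analysis and 11 (7 higher, 4 lower) with upper-quartile scaling. It was 3 at an adjusted p under 0.01 and 3 to 22 with 1 library left out. These totals can include members outside the 19, such as SDHA, called lower with upper-quartile scaling. Over all genes, 4657 became 2459 at an adjusted p under 0.01 and 2704 to 5114 with 1 library left out; upper-quartile scaling moved the split from 2328 higher and 2329 lower to 1773 and 2803, and the median of all genes to -0.06. CYCS, SDHB and UQCC3 passed in all 14 alternatives. The sign of MT-CO2 turned with upper-quartile scaling (-0.055), no filter (-0.0098), 1 CPM in 3 libraries (-0.011) and the length correction (-0.052), and ran from -0.060 to 0.058 with 1 library left out; MT-CO3 ran from -0.099 to 0.048. For 25 of the 68 members tested (the 19 called, ATP5IF1 and the 5 other mitochondrial ones), 274 of 350 values under an alternative kept direction and side of the threshold, 67 lost a call, 2 gained one and 7 turned sign (those of MT-CO2 and MT-CO3). The other 43 members gained 14 calls (ATP5F1E, ATP5MC2, ATP5MF-PTCD1, COX17, SDHA, UQCRHL and UQCRQ). The cause was not tested. Replicate numbers do not pair the libraries (same-numbered correlations 0.03, 0.10 and -0.03), and not every library correlated best with its own number; with the replicate block 4742 genes and 21 members (19 higher, 2 lower) were called, and MT-CO1 was not (adjusted p = 0.0568). Members under about 10 CPM are limited by depth in knockdown library 1.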
